A study of Mus musculus with 36 samples.

Results

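Cholesterol synthesis and its control by sterol regulatory element binding proteins (SREBPs) were followed through 8 genes chosen by name, of 40205 features counted. They were the enzymes Hmgcs1, Idi1, Fdps, Sqle, Lss and Dhcr7, the transcription factor gene Srebf2 and the retention factor gene Insig1. Of these, 7 had counts and passed the filter on low counts in every comparison. Insig1 was listed at 0 in all 36 libraries.

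The libraries came from neural stem cells (NSCs) of the dorsal telencephalon of C57BL/6J mouse fetuses (gestational day 12.5), grown as neurospheres, and from the extracellular vesicles (EVs) that the same cultures released. Fetuses of each sex within a pregnancy were pooled, so that 3 pregnancies (sets 3, 4 and 5) gave 3 female and 3 male cultures, named here 3F, 3M, 4F, 4M, 5F and 5M. Each culture was grown for 5 days in ethanol at 0, 120 (26 mM) or 320 mg/dL (70 mM), and the cells and EVs of each flask group were sequenced, giving 18 cell and 18 EV libraries with 6 in each location and dose. All cultures, controls included, had been passaged 7 to 10 times, and all are labelled wild type. The study's methods give the mice as the Ai14 line, which carries a Cre-dependent fluorescent reporter allele shared by every group. In units of 1000000 counts (M), cell libraries held 26.6 to 55.3 M (median 37.8 M) and EV libraries 0.959 to 5.51 M (median 3.83 M), with 6 EV libraries under 2 M: all of 4F, 3F without ethanol, and 3M at 120 and 320 mg/dL. Of the 10 NSC markers, 8 had a median of at least 1 CPM (counts per 1000000 counts of the library) in cells, with a summed level of 2149 to 4593 CPM. Sox2 and Sox1 were at 0 in every library, and both lie, like Insig1, wholly inside the span of another gene. Microglial markers summed to at most 0.766 CPM in cells and 8.67 CPM in EVs (median 1.63 CPM), and endothelial markers to at most 2.40 CPM in cells and 10.5 CPM in EVs (median 2.05 CPM).

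Cells make cholesterol from acetyl-CoA. HMGCS1 makes HMG-CoA, IDI1 and FDPS build isoprenoids from the mevalonate that follows, SQLE oxidises squalene, LSS closes the ring to give lanosterol, and DHCR7 carries out a last reduction. When sterols in the endoplasmic reticulum run low, SCAP escorts SREBP2, the product of Srebf2, to the Golgi, where the proteases encoded by Mbtps1 and Mbtps2 release a fragment that turns on the enzyme genes. INSIG1 holds SCAP back when sterols are plentiful. The brain comes to depend on cholesterol made within it as it develops.

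SREBPs bind sterol regulatory elements near start sites, often beside a site for NF-Y. The promoters are shown to place both motifs in the genes described here. They are 250 bases before the start site from RefSeq (GRCm38.p6, plus strand), with every TCACNCCAC or CCAAT match on either strand in capitals. For Dhcr7, which had 3 entries, the entry with a match is given.

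Hmgcs1, chr13:119690101-119690350 (+): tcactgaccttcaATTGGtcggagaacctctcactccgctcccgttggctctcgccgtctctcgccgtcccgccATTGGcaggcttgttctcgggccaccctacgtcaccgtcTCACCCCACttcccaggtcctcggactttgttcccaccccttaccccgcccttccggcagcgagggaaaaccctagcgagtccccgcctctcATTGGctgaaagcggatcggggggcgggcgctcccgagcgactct
Idi1, chr13:8885356-8885605 (+): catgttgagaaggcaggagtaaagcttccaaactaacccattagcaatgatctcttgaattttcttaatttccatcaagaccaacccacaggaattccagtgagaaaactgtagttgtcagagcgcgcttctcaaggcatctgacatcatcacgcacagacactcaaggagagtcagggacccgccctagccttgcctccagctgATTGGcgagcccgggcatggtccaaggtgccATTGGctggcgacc
Dhcr7, chr7:143829964-143830213 (+): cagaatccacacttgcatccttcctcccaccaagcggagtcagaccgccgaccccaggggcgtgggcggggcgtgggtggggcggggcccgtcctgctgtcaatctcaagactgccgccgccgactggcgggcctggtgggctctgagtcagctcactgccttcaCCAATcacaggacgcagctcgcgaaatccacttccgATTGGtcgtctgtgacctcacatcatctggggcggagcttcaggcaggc
Lss, chr10:76531355-76531604 (+): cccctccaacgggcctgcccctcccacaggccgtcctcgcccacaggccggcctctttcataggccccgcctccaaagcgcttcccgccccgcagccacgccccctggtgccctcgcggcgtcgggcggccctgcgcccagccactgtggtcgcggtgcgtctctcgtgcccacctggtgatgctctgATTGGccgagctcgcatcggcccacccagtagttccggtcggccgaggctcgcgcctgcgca
Srebf2, chr15:82147019-82147268 (+): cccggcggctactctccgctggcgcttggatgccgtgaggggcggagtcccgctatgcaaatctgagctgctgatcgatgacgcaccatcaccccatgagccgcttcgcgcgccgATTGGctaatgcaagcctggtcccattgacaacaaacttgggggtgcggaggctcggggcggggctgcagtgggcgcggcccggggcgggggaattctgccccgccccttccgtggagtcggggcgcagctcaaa
Insig1, chr5:28071162-28071411 (+): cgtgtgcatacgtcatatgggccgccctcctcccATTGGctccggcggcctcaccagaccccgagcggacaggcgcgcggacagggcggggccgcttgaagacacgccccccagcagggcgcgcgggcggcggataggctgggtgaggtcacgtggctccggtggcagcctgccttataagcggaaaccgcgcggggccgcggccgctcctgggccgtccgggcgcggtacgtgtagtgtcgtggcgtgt

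RefSeq held a promoter for 6 of the 8 genes. These were 8 entries, of which 6 held CCAAT, 1 for each gene and none in the other 2 of Dhcr7, against 33.8% of 32851 entries in the whole table. CCAAT occurred 3 times in Hmgcs1 and 2 times in Idi1 and in the Dhcr7 entry shown. TCACNCCAC was found in 1 of the 8 entries, that of Hmgcs1, against 1.05% of all entries, and both motifs together in 0.326%. No match says only that these letters are not in this window. The intron of Srebf2 also holds Mir33, whose mature arm miR-33-5p, with the seed at bases 2 to 8 in capitals, is

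miR-33-5p: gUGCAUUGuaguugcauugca

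and Mir33 had 0 counts in all 36 libraries. In RefSeq, 878 protein-coding genes lie wholly inside the span of another gene, and 852 of them (97.0%) were at 0 in every library, against 962 of 20834 others (4.62%). Insig1 lies inside the lncRNA gene Gm35223, which had 2.38 to 8.52 CPM in cells. A zero at Insig1 or Mir33 is therefore not read as a level.

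Per length of exon, Hmgcs1 had the highest level of the 7 genes in cells and Lss the lowest. Whether reads in introns were counted is not given in the sources used here. Exon length here is that of all annotated exons of a gene merged. For Fdps it was 4.89 kb, where the transcript used below for base content has 1306 bases. The orders below hold for exon length only and may differ on transcript length. Orders on another length were not tested. Divided by the length of their exons, on the scale common to cells and EVs, mean levels in cells were 54.2 ± 26.4 CPM per kb (SD, n = 18 libraries) for Hmgcs1, 9.03 ± 3.93 for Sqle, 8.09 ± 1.20 for Srebf2 and 7.07 ± 4.77 for Fdps. The levels were 2.53 ± 1.33 CPM per kb for Idi1, 1.92 ± 0.748 for Dhcr7 and 0.829 ± 0.528 for Lss. Sqle, Srebf2 and Fdps lay within their spread of each other, as did Idi1 and Dhcr7. In EVs, Hmgcs1 (17.0 ± 4.31 CPM per kb) and Srebf2 (14.7 ± 4.68) led and were within their spread, followed by Fdps (7.25 ± 2.01), Sqle (2.90 ± 1.06), Dhcr7 (1.37 ± 0.542), Idi1 (0.968 ± 0.552) and Lss (0.769 ± 0.321).

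The 6 enzymes differed more between cultures than between ethanol doses, and they did so together. In cells, each enzyme was highest in 3M and lowest in 4M or 5F, and 3F, 3M and 4F held the 3 highest culture means of every enzyme. Fdps, which makes farnesyl pyrophosphate, had cell levels (CPM, scaled among cell libraries) of 46.1, 58.8 and 81.7 at 0, 120 and 320 mg/dL in 3F, and of 98.0, 55.5 and 92.2 in 3M. It was at 46.7, 58.7 and 56.7 CPM in 4F, but at 13.6, 16.8 and 19.0 in 4M. In 5F it was at 13.6, 17.0 and 17.2 CPM and in 5M at 15.9, 19.2 and 22.1. Every Fdps value in 3F, 3M and 4F thus lay above every value in the other 3 cultures, and the culture means differed by up to 5.14 times.

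Hmgcs1 was at 608 to 760 CPM in the 3 libraries of 3M, at 332 to 436 CPM in 4F and at 335 to 407 CPM in 3F. It was at 239 to 301 CPM in 5M, 167 to 195 CPM in 4M and 161 to 195 CPM in 5F. The highest culture mean was 3.74 times the lowest for Hmgcs1, 3.81 times for both Idi1 and Sqle, 4.90 times for Lss and 2.66 times for Dhcr7. Srebf2, which encodes the regulator, kept a narrow range: its culture means lay between 76.0 CPM (5F) and 102 CPM (5M), 1.34 times apart, and did not share the enzymes' order.

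**Figure D1:**
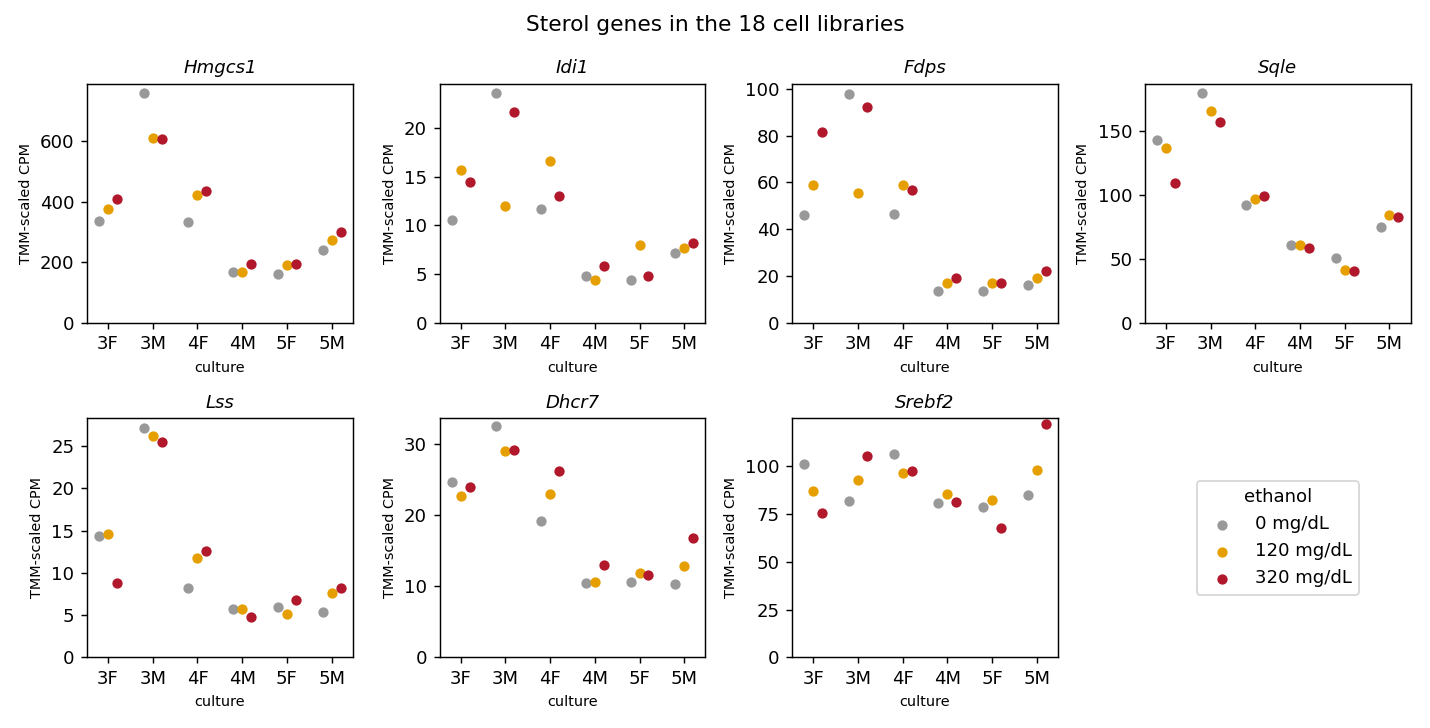
Levels of the 7 genes in the 18 cell libraries. Each point is a library; the x axis is the culture (pregnancy set and sex), the y axis CPM scaled among cell libraries by TMM (trimmed mean of M values), from 0, and the colour the ethanol dose. Enzyme levels are highest in 3M, while Srebf2 stays between 67.4 and 122 CPM.

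Of the spread of log2(CPM + 1) over the 18 cell libraries, culture held 86.1% (Idi1) to 97.6% (Sqle) in the enzymes and dose 0.399% (Lss) to 2.57% (Dhcr7). For Srebf2 culture held 52.1% and dose 0.390%. The median over genes at 5 CPM or more was 81.4% for culture and 1.83% for dose. Across cell libraries, all 21 pairs of the 7 genes were positively correlated (median Pearson r 0.90). With each culture's mean taken off, 13 of 21 pairs were positive (median r 0.32), the strongest being Hmgcs1 with Dhcr7 (r = 0.78), Hmgcs1 with Fdps (0.76) and Idi1 with Fdps (0.75). These are descriptions over libraries that share cultures.

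The NSC marker sum was also higher in the cells of 3F, 3M and 4F (3146 to 4593 CPM) than in those of 4M, 5F and 5M (2149 to 2620 CPM). The 5 neuronal markers summed to 590 to 1053 CPM in the former and 796 to 1162 CPM in the latter. Astrocyte marker sums (26.2 to 330 CPM) were highest in 3M and 5M. Oligodendrocyte lineage marker sums (70.1 to 227 CPM) had their highest culture mean in 5F (206 CPM) and their lowest in 5M (79.6 CPM). The part of these markers in the differences between cultures was not tested. In bulk RNA, fewer cells of a type and less RNA per cell cannot be told apart.

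The genes whose cell levels followed the mean of the 7 most closely, with culture means taken off, were sought among 10478 others at 5 CPM or more. The 10 nearest were H2bc13 (r = 0.90), Fdft1 (0.86), Acat2 (0.84), Oma1 (0.83), Hjurp (0.82), Mxd3 (0.82), Vrk3 (0.82), H2bc9 (0.81), Mvd (0.81) and Orai3 (0.80), over 18 libraries. Fdft1, encoding squalene synthase, Acat2 and Mvd belong to the pathway lists described next.

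In EVs, the cultures differed less in most enzymes and in another order. Culture means of Hmgcs1 lay between 63.8 CPM (5F) and 91.7 CPM (3M), 1.44 times apart, and those of Fdps between 25.6 CPM (5F) and 39.9 CPM (5M), 1.56 times apart. Those of Sqle differed by 2.04 times, of Srebf2 by 2.10 times, of Lss by 2.14 times, of Dhcr7 by 2.83 times and of Idi1 by 3.14 times. Idi1 had 0 to 24 counts in an EV library and Lss 3 to 53, the lowest counts of the 7 genes. Culture held 40.2% (Fdps) to 84.1% (Dhcr7) of the spread in EVs and dose 0.177% (Lss) to 9.07% (Hmgcs1).

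**Figure D2:**
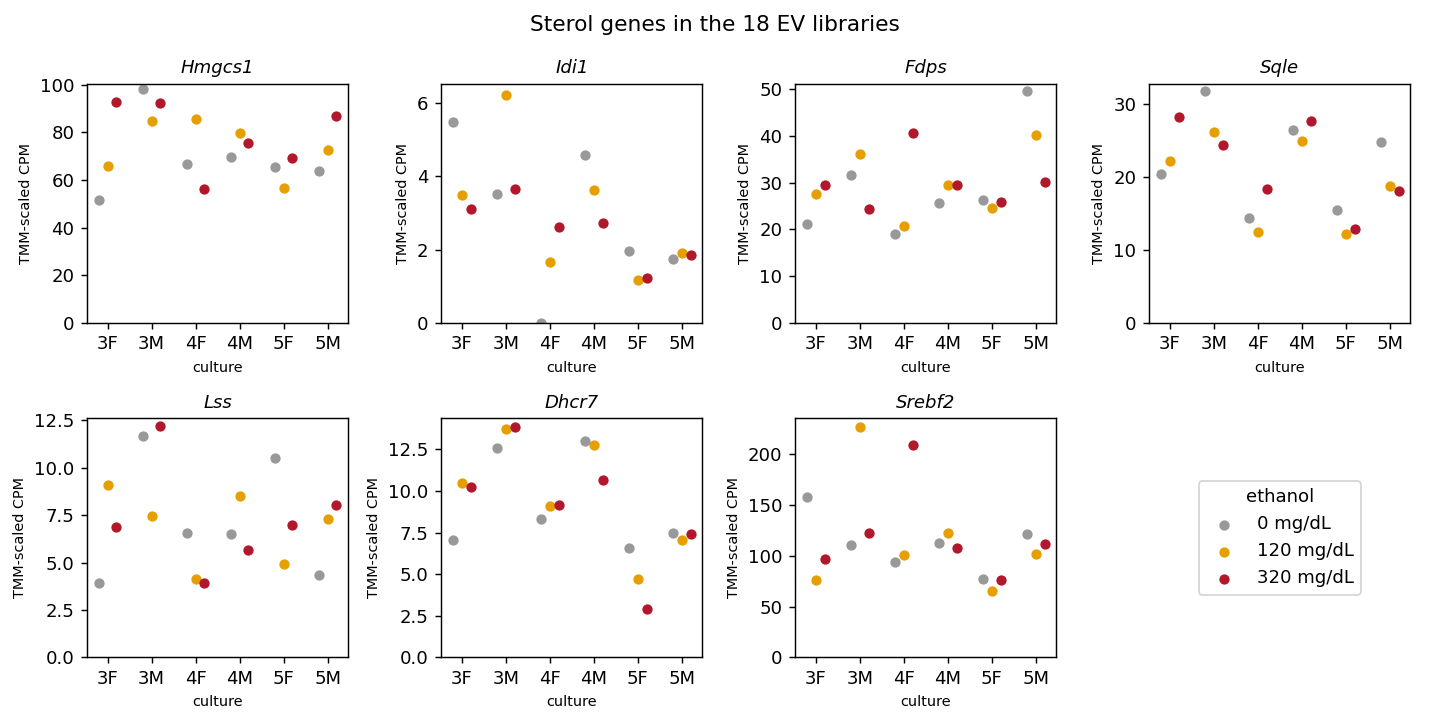
Levels of the 7 genes in the 18 EV libraries, drawn as for cells, with CPM scaled among EV libraries on the y axis from 0. The high Srebf2 points of 3M at 120 mg/dL (227 CPM) and 4F at 320 mg/dL (208 CPM) come from libraries of 0.959 and 1.55 M counts.

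EVs were compared with the cells that released them, to find which transcripts were relatively more or less abundant there. Hmgcs1, Sqle and Idi1 were lower in EVs and Srebf2 was higher. On the scale common to all 36 libraries, Hmgcs1 in EVs was 0.312 times its cell level (log2 difference -1.68 ± 0.184 SE, adjusted p = 1.61e-10, edgeR quasi-likelihood test) and lower in 18 of 18 pairs of the same culture and dose. Sqle, which encodes squalene epoxidase, was 0.317 times its cell level (log2 -1.66 ± 0.192, adjusted p = 5.87e-10) and lower in 18 of 18 pairs. Idi1 was 0.374 times its cell level (log2 -1.42 ± 0.276, adjusted p = 1.55e-05) and lower in 16 of 18 pairs. Srebf2 was 1.79 times its cell level (log2 0.84 ± 0.119, adjusted p = 5.32e-08) and higher in 18 of 18 pairs.

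Dhcr7 was lower by the same test (log2 -0.49 ± 0.195, adjusted p = 0.0206, 14 of 18 pairs), a call that was lost in 5 of the 11 alternatives, among them DESeq2 (-0.15), median-of-ratios scaling (-0.15), the libraries without set 3 (-0.27) and those without ethanol (-0.37), with the sign turned by thinning (0.27); the adjusted p of these 5 lay between 0.267 and 0.485. Lss (log2 -0.08, 95% interval -0.56 to 0.41) and Fdps (log2 0.04, interval -0.47 to 0.55) did not pass. So 1 gene was higher and 4 lower of 7 tested, where 81.8% of all 17758 genes tested passed, 38.1% higher and 43.7% lower. With so high a share, a call alone says little about these genes, and their median of -0.49 compares with -0.14 over all genes.

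The size of these differences depended on the setting. The median over all genes ran from -0.65 (library totals) to 0.46 (no filter on low counts), and Hmgcs1 ran from -2.17 to -0.90, the latter with all libraries thinned to the smallest total. Hmgcs1 and Sqle remained lower and Srebf2 higher, past the threshold, in 12 of 12 settings, and Idi1 lower in 11. The distance between Srebf2 and Hmgcs1 lay between 2.09 and 2.82 on the log2 scale over the 12 settings. The fit treats 18 libraries a side as separate although each culture gave 3. The 6 against 6 libraries without ethanol gave -1.65 for Hmgcs1, -1.61 for Sqle, -1.27 for Idi1 and 0.92 for Srebf2, all past the threshold. Without the 6 EV libraries under 2 M counts the values were -1.77 for Hmgcs1, -1.71 for Sqle, -1.58 for Idi1, 0.51 for Srebf2 and -0.64 for Dhcr7, also past it.

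The EV to cell difference of Fdps and Lss had opposite signs in different cultures. On the log2(CPM + 1) scale, averaged over the 3 doses, Fdps was at -0.63 in 3F, -0.73 in 3M and -0.85 in 4F, but at 1.35 in 4M, 1.13 in 5F and 1.49 in 5M. Lss was at -0.34, -0.67 and -0.82 in the former 3 and at 0.83, 0.66 and 0.32 in the latter. These are the cultures in which cell levels were high and low, respectively. For Fdps, EV levels spanned 25.8 to 48.5 CPM on the common scale and cell levels 13.3 to 66.1 CPM. The 6 EV libraries under 2 M counts also all came from 3F, 3M and 4F. The part of cell level and of depth in this split was not tested. Hmgcs1 was lower in EVs in every culture, from -2.29 (4F) to -0.61 (4M), and Srebf2 higher in every culture, from 0.43 (5F) to 1.28 (3M).

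**Figure D3:**
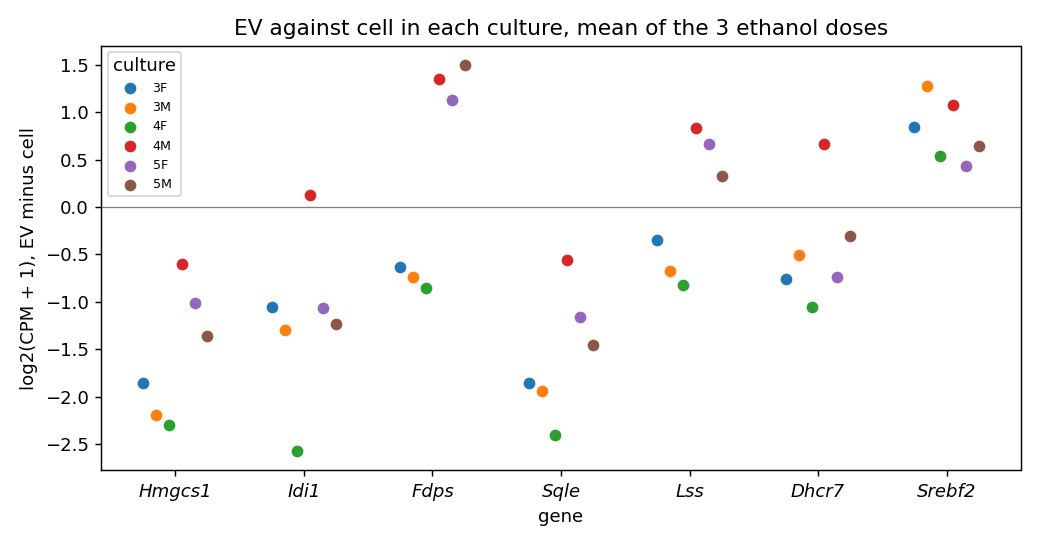
EV minus cell difference of each gene in each culture, as log2(CPM + 1) on the common scale and averaged over 3 doses; each point is a culture and the line marks no difference. Srebf2 lies above the line and Hmgcs1 and Sqle below it in all 6 cultures, and Fdps and Lss are split 3 to 3.

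The other genes of the pathway were also split in EVs, 9 higher and 24 lower of 41 tested. Of all 17758 genes tested 81.8% passed, 38.1% higher and 43.7% lower, so here too a call alone says little. Among the mevalonate and isoprenoid enzymes, 3 of 5 were higher: Mvk, mevalonate kinase (log2 1.26 ± 0.203), Mvd, mevalonate diphosphate decarboxylase (1.17 ± 0.262), and Acat2, the cytosolic thiolase (0.81 ± 0.178). Ggps1, which makes geranylgeranyl pyrophosphate, was lower (-1.55 ± 0.112). Pmvk was at -0.19 (adjusted p = 0.118).

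Among 8 sterol enzymes from squalene synthase on, 1 was higher and 6 lower. Fdft1, squalene synthase, was higher (1.52 ± 0.208). Msmo1, the methyl sterol oxidase, was the lowest gene of all lists (-4.33 ± 0.231), followed by Cyp51, lanosterol demethylase (-3.24 ± 0.189). Tm7sf2 (-2.09), Ebp (-1.90), Sc5d (-1.80) and Hsd17b7 (-1.67) were also lower, and Nsdhl was at 0.05 (adjusted p = 0.833). Neighbouring steps thus lay far apart, with the list's median at -1.85.

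Of the 5 genes of SREBP processing, Srebf1 (1.20) and Insig2 (0.89) were higher, and the escort gene Scap (-1.64) and the protease genes Mbtps1 (-0.80) and Mbtps2 (-2.03) lower. Among 11 SREBP targets of fatty acid synthesis and sterol transport, 1 was higher, the sterol carrier gene Stard4 (2.37 ± 0.279), and 7 lower. The 7 were Tmem97 (-2.43), Fads2 (-2.02), Acss2 (-1.36), Acly (-0.94), Scd2 (-0.71), Elovl6 (-0.63) and Acaca (-0.48).

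Of 7 genes of the LXR and efflux list, Abcg1 was higher (3.05 ± 0.328) and its fellow sterol exporter Abca1 lower (-2.22 ± 0.205), as were Lpcat3 (-1.84) and Nr1h2 (-0.80), which encodes LXR beta. Only 4 of the 7 passed the filter on low counts in the dose fits of the EV libraries alone. Levels of the list genes are not given here. In storage and trafficking, Stard3 was higher (1.61 ± 0.126), and Lipa (-1.32), Osbp (-0.86), Soat1 (-0.84) and Npc2 (-0.60) were lower. Every adjusted p of a gene called here was at most 0.000117 (edgeR quasi-likelihood test). In 10 of 11 alternatives none of the 33 changed sign and 30 to 33 calls were kept. Thinning to the smallest total turned Acaca, Elovl6, Npc2 and Scd2 and kept 21 of 33 calls.

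**Figure D4:**
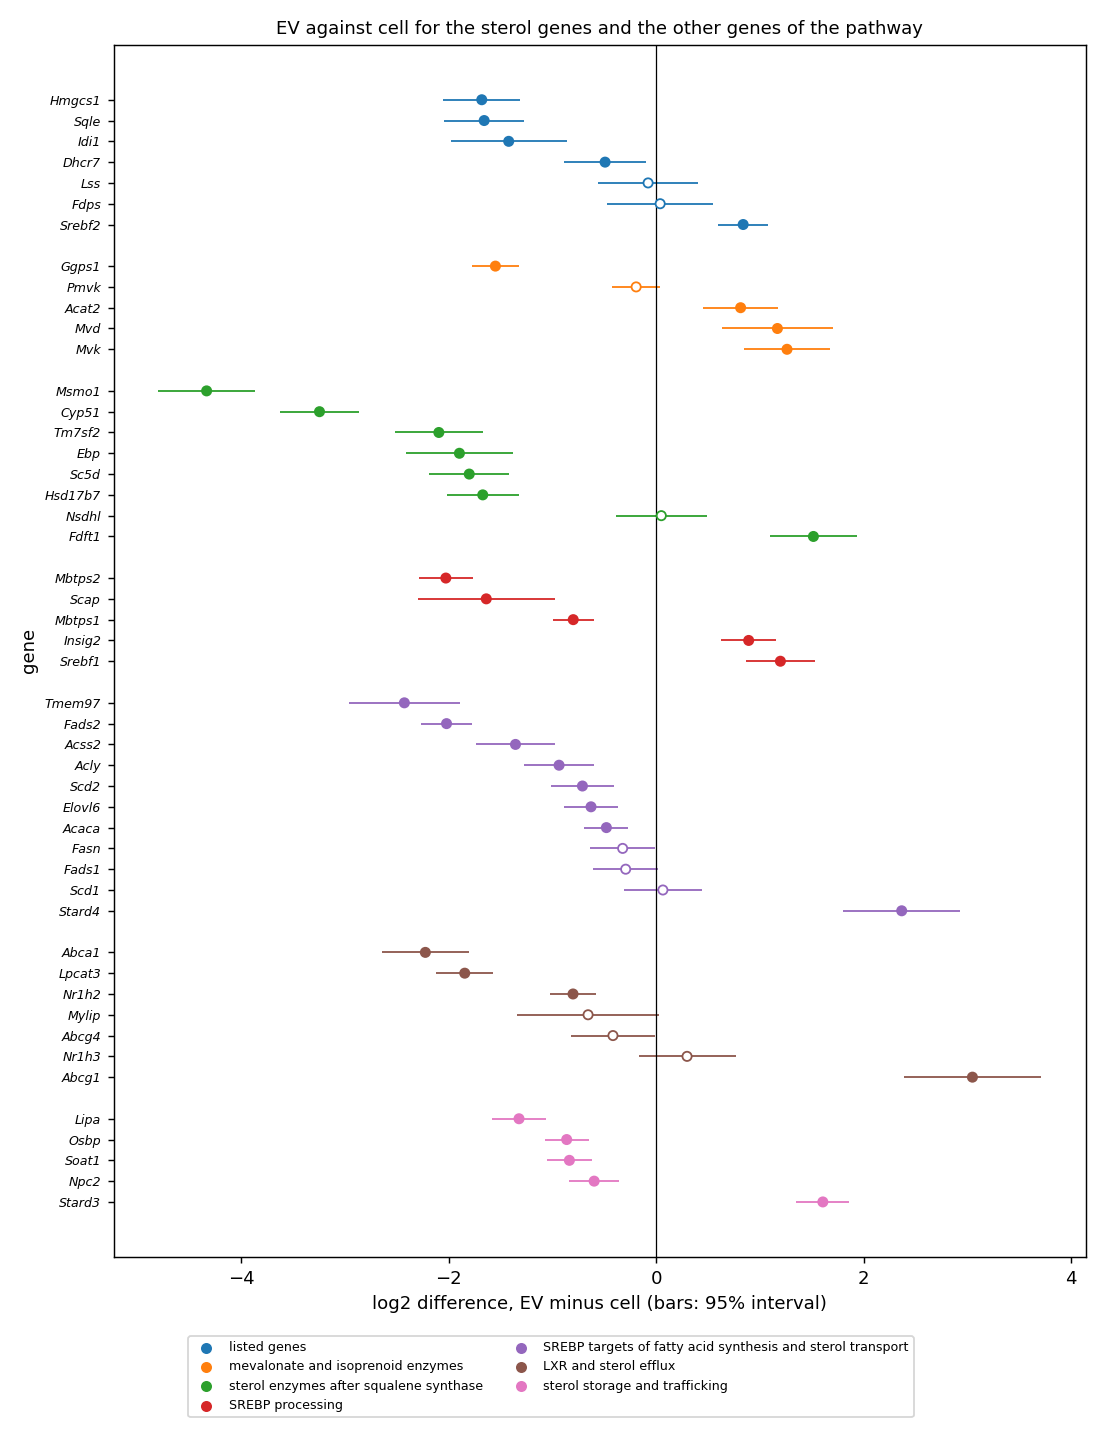
EV minus cell log2 differences (x axis) of the 7 tested genes and the 41 others by list (colour). Points are estimates of the edgeR fit, bars 95% intervals, and filled points passed the threshold of 0.05 on the adjusted p. Every list has genes on both sides of 0, from Msmo1 at -4.33 to Abcg1 at 3.05.

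The bases G and C made up 57.9% of the Srebf2 transcript, 42.0% of Hmgcs1 and 39.0% of Idi1. They made up 49.9% of Sqle, which was about as low in EVs as Hmgcs1. In Dhcr7 they made up 54.2%, in Fdps 52.3% and in Lss 48.9%. Over the 7 genes and the 41 others, all with a GENCODE transcript, the EV to cell difference had a Pearson r of 0.34 with G and C content and 0.09 with log2 length. Over 16307 of the 17758 genes tested these were 0.09 and -0.11. Points share libraries, and this is a description.

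The dose question was whether ethanol moved these genes within a culture. No member passed the threshold at any dose in cells or EVs. In cells, 0% of 18725 genes were called at 120 mg/dL and 0% at 320 mg/dL by edgeR, with 476 and 1575 at an unadjusted p under 0.05, and by DESeq2 4 and 107. The fit of a slope on dose called 0.0854%.

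Fdps had the largest difference among the members in cells at 320 mg/dL. Its levels ranged from 13.6 to 98.0 CPM (median 31.0) without ethanol, from 16.8 to 58.8 (median 37.3) at 120 mg/dL and from 17.2 to 92.2 (median 39.4) at 320 mg/dL, so the groups overlapped widely. Within cultures it was higher at 320 mg/dL in 5 of 6, by 0.28 (4F) to 0.81 (3F) on the log2(CPM + 1) scale, and at -0.09 in 3M. The fit with culture as a block gave 0.37 ± 0.134 (95% interval 0.08 to 0.66, unadjusted p = 0.0156, adjusted p = 0.479).

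Dhcr7 was at 0.22 ± 0.0943 (unadjusted p = 0.0333, adjusted p = 0.55), higher in 4 of 6 cultures, with medians of 14.9, 17.8 and 20.4 CPM at the 3 doses. Hmgcs1 was at 0.19 ± 0.0888 (unadjusted p = 0.05, adjusted p = 0.594) and higher in 5 of 6 cultures. It had medians of 286, 324 and 354 CPM and an opposite sign in 3M (-0.32), the culture where it was highest. Idi1 was higher in 5 of 6 cultures at 320 mg/dL (fit 0.17 ± 0.185, adjusted p = 0.85).

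Of all 10487 genes at 5 CPM or more in cells, 9.99% were higher in at least 5 of 6 cultures at 320 mg/dL, against 3 of the 7 members, Fdps, Hmgcs1 and Idi1, which share the same control libraries. Sqle went the other way in 4 of 6 cultures (fit -0.12 ± 0.0744, interval -0.28 to 0.04, adjusted p = 0.732). Lss (0.07, interval -0.25 to 0.39) and Srebf2 (0.03, interval -0.20 to 0.25) were each higher in 3 of 6. Srebf2 was lower at 320 mg/dL in the 3 female cultures and higher in the 3 male ones, though by only 0.02 in 4M. At 120 mg/dL, member differences in cells lay between -0.04 (Sqle) and 0.17 (Idi1).

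**Figure D5:**
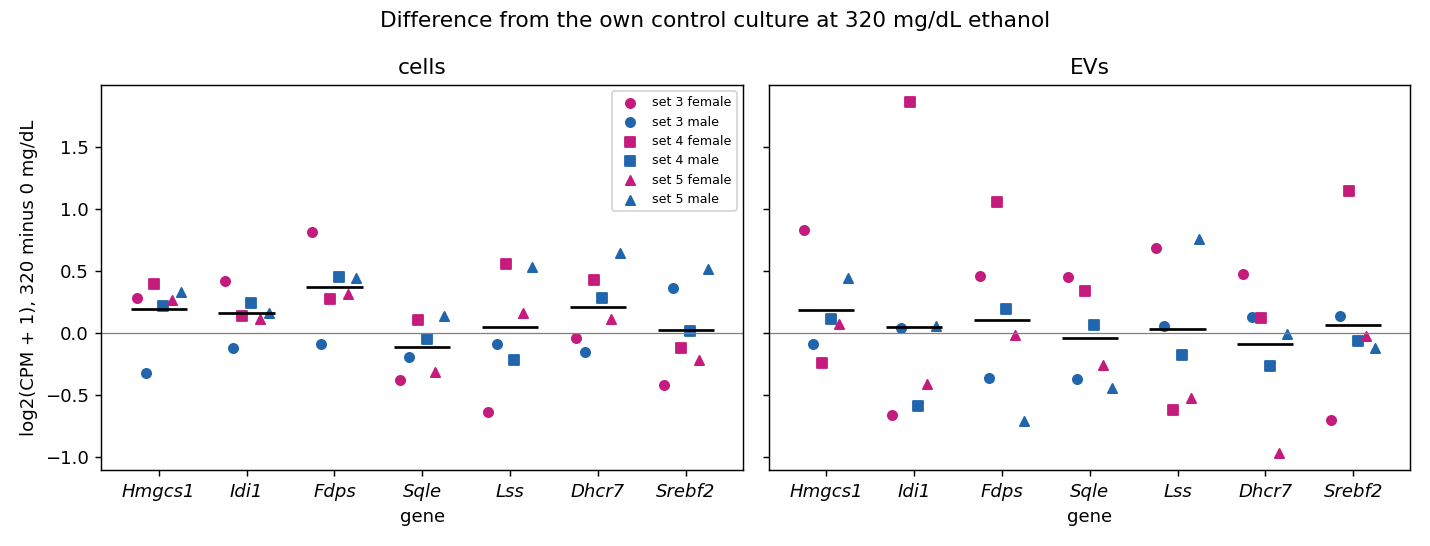
Difference at 320 mg/dL from the culture's own control, as log2(CPM + 1) within cells (left) and EVs (right); points are the 6 cultures, marked by set and sex, and black bars their means. In cells Fdps is above 0 in 5 of 6 cultures, and in EVs every gene has cultures on both sides of 0.

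Among the 41 other genes in cells, Tm7sf2, a sterol reductase, passed in the fit on dose, rising by 0.12 ± 0.017 on the log2 scale per 100 mg/dL (adjusted p = 0.0316, edgeR quasi-likelihood test). At 320 mg/dL alone it was at 0.39 (adjusted p = 0.0561). The call on dose was lost when any 1 of the 3 pregnancies was left out, with library totals, with no filter on low counts and without the culture block. It was kept with median-of-ratios scaling and by DESeq2. The DESeq2 fit called 3 genes of these lists, all higher, among 128 genes of the whole table.

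At 320 mg/dL in cells, 7 of 8 sterol enzymes had positive values (median 0.19), as did 5 of 5 mevalonate enzymes (0.09), 9 of 11 lipid targets (0.10), 2 of 5 processing genes (-0.01), 2 of 7 LXR genes (-0.04) and 3 of 5 storage genes (0.05), where the median of all genes was -0.00098. In each list, the 2 smallest unadjusted p values belonged to Tm7sf2 and Cyp51 (0.22) of the sterol enzymes, Scd1 (0.39) and Fads2 (0.26) of the lipid targets, Acat2 (0.18) and Pmvk (0.12), Mbtps1 (-0.08) and Insig2 (0.02), Abcg1 (-1.15) and Abca1 (0.20), and Lipa (0.12) and Osbp (-0.08), with none past the threshold.

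In EVs, 0.00758% of 13193 genes were called at 120 mg/dL, 0.0758% at 320 mg/dL and 0.0758% in the fit on dose, no member among them. Hmgcs1 in EVs had medians of 66.1, 76.1 and 81.4 CPM at 0, 120 and 320 mg/dL, with ranges of 51.6 to 98.1, 56.6 to 85.4 and 56.3 to 92.7 CPM that overlapped. It was higher at 320 mg/dL in 4 of 6 cultures (fit 0.21, 95% interval -0.10 to 0.51, adjusted p = 0.672). Sqle was lower at 120 mg/dL in 5 of 6 cultures (fit -0.23 ± 0.125, adjusted p = 0.864) but lower in 3 of 6 at 320 mg/dL (-0.08, interval -0.34 to 0.18).

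Fdps in EVs was at 0.04 (interval -0.33 to 0.41), Dhcr7 at -0.09 (-0.44 to 0.25), Srebf2 at 0.05 (-0.45 to 0.55), Lss at 0.02 (-0.51 to 0.54) and Idi1 at -0.27 (-0.95 to 0.41) at 320 mg/dL. The intervals are wider than in cells, and they include the cell estimate of each gene at this dose. Without the 6 EV libraries under 2 M counts, Fdps was at -0.17 and Dhcr7 at -0.32, again not past the threshold. Each culture with high cell levels of the enzymes thereby lost its control, its 320 mg/dL library or both. Pairs of 320 mg/dL and own control remained only in the cultures with low levels. These values therefore cannot separate depth from culture. Of the 37 other genes tested in EVs, none passed at either dose. At 320 mg/dL the smallest p values of each list belonged to Srebf1 (-0.42, adjusted p = 0.245) and Scap (-0.25), Fads2 (0.36, adjusted p = 0.25) and Acss2 (0.62), Mylip (1.48, adjusted p = 0.303) and Nr1h2 (0.45), Fdft1 (-0.26) and Sc5d (0.35), Pmvk (0.11) and Mvk (0.06), and Stard3 (-0.37) and Soat1 (-0.31).

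The change of the EV to cell difference with ethanol was tested in a fit of all 36 libraries, in which 0% of 22854 genes were called at 320 mg/dL (1064 at an unadjusted p under 0.05, and 25 by DESeq2). Fdps was at -0.34 ± 0.212, Dhcr7 at -0.35 ± 0.226 and Idi1 at -0.44 ± 0.383 on the log2 scale. Hmgcs1, Sqle, Srebf2 and Lss lay between -0.02 and 0.03, with intervals reaching from -0.56 to 0.54. Without the 6 EV libraries under 2 M counts and the cell libraries paired with them, Fdps was at -0.65 and Dhcr7 at -0.75 (adjusted p = 0.652 for both, edgeR) and Idi1 at -0.70 (adjusted p = 0.845). Here too, pairs of 320 mg/dL and own control remained only in the cultures with low cell levels of the enzymes. Whether depth or the choice of cultures moved these values was not tested.

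Female and male cultures were compared within each location. In cells, 5.7% of 18048 genes were called and no member, with differences between -0.40 (Lss) and 0.18 (Fdps). Since cultures of the same sex differed severalfold in the enzymes, the intervals were wide, from -0.83 to 1.19 for Fdps. Mylip, which encodes a ligase for lipoprotein receptors, was higher in female cells (0.76 ± 0.191, adjusted p = 0.0285), a call lost without set 5, with no filter on low counts and with counts summed over doses.

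In EVs, 12% of 12252 genes were called and no member, though all 7 had lower female means. Sqle was at 12.2 to 28.2 CPM (median 15.4) in the 9 female and at 17.97 to 31.8 CPM (median 24.9) in the 9 male EV libraries, which overlapped (log2 -0.47 ± 0.171, adjusted p = 0.0755, edgeR). Dhcr7 was at 2.88 to 10.5 CPM (median 8.33) in female and 7.04 to 13.8 CPM (median 12.6) in male EVs (log2 -0.49 ± 0.233, adjusted p = 0.157). A further edgeR fit had the pregnancy as a block, which pairs the female and male cultures of a litter. By it Sqle (-0.53, adjusted p = 0.00577) and Dhcr7 (-0.52, adjusted p = 0.0103) passed, but it called 3738 genes of the table in place of 1475. For female and male EV libraries of a pregnancy and dose, deviations from the mean of the dose had a median r of -0.21, with 1 of 9 pairs over 0.1. That mean includes both libraries of a pair, which by itself pulls r below 0. These values therefore cannot tell whether the female and male libraries of a litter were alike. With counts summed over doses, which leaves 3 cultures a sex, no gene of the table passed, and the 3 doses of a culture are not separate animals.

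Of the 37 others tested in EVs, 4 were lower in female libraries: Mvd (-0.89), Fdft1 (-0.77), Mvk (-0.64) and the acyltransferase gene Soat1 (-0.38), with adjusted p values of 0.0139 to 0.0435 by edgeR. Without set 4 or with library totals only 1 of the 4 calls, Mvd, was left, and all 4 were lost without set 5, without the 6 EV libraries under 2 M counts and with counts summed over doses. All 4 were kept by DESeq2, without set 3 and with the pregnancy as a block, which called 12, 16 and 20 of these genes. Without those 6 libraries, 33 genes of the whole table were called in place of 1475. Of the 6, 4 were from female cultures. Among the members, Sqle was then at -0.37 (adjusted p = 0.351, edgeR), Srebf2 at -0.50 (adjusted p = 0.121) and Lss at 0.11 (adjusted p = 0.822).

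The 7 genes with counts lie on chromosomes 3 (Fdps), 7 (Dhcr7), 10 (Lss), 13 (Hmgcs1 and Idi1) and 15 (Sqle and Srebf2). In GENCODE (GRCm39), Hmgcs1 spans chr13:120151915-120170470 on the plus strand and 12% of its exon bases are shared with exons of Gm48342 or Nim1k on the minus strand. Srebf2 spans chr15:82031382-82093201 and shares 10.7% of its exon bases, Idi1 (chr13:8935537-8942487) 9.10% and Sqle (chr15:59186869-59203043) 5.29%. Lss (chr10:76367298-76392976) shares 4.77%, and Fdps (chr3:89000888-89019213, minus strand) and Dhcr7 (chr7:143376740-143402149) share none. The span of Fdps does overlap the gene Gm22935. Insig1, which GENCODE places inside Gm26608, also shares 0% of its exon bases and was at 0 in every library. Exon sharing alone thus does not tell which genes kept counts. Whether reads were counted by strand is not stated in the sources used here, and the part of such overlaps in these counts was not tested.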

How the data were processed

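RNA of neurosphere cells and of EVs pelleted by ultracentrifugation from their medium was made into libraries with a stranded total RNA kit after ribosomal depletion. The authors trimmed and deduplicated reads, aligned them with STAR to mm39 and used HTSeq to count reads per gene. What they deposited are raw counts of 40205 features in each library. The file holds no rows of unassigned reads. How HTSeq treated strand and overlaps is not given in the sources used here.

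Counts were tested with edgeR 4.0.16 (quasi-likelihood test, TMM, filterByExpr with a minimum count of 10 and total of 15, Benjamini-Hochberg adjusted p under 0.05, R 4.3.3). EV against cell was fitted with sex and dose as terms. Dose and its change between locations had the culture as a block, sex had dose as a term, and SEs come from the F statistic. CPM displayed for dose, sex and culture were scaled within location; EV against cell used 1 scale. DESeq2 1.42.0, other scalings, filters, left-out pregnancies and the replicate block were alternatives, and the code was tested on simulated data. Same-culture libraries correlated at different doses (median r 0.73 and 0.72 in cells, 0.32 and 0.47 in EVs, every pair over 0.1), the pairing coming from the labels. Replicates are cultures of separate pregnancies, 3 a sex, and p values over libraries of the same culture are too small. The 95% intervals come from the same fits and include the spread between libraries.

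The genes, lists and alternatives were chosen with earlier results of these data known. Other pathway genes are named where they passed the threshold, or the leading ones by p at 320 mg/dL where none did. Of the genes of the pathway lists, 41 are reported here, and 1 is not reported.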

Additional observations from a re-analysis of the deposited data

Results flagged for a closer look

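In groups of 6 libraries, 4 values of the 7 genes lay further from the rest than a 95% limit on the gap allows, a limit that chance passes in about 1 in 20 groups, and 42 groups were looked at. Srebf2 was at 227 CPM in the EVs of 3M at 120 mg/dL, where the other 5 EV libraries of that dose were at 64.8 to 122 CPM. It was at 208 CPM in the EVs of 4F at 320 mg/dL, and Fdps at 40.6 CPM in the same library. Both libraries are among the 6 EV libraries under 2 M counts (1 M being 1000000). Hmgcs1 was at 760 CPM in the cells of 3M without ethanol, a library of 39.4 M counts from the culture in which all 6 enzymes were highest.

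Srebf2 in cells had mean differences of opposite sign in the sexes at 320 mg/dL. The mean log2 difference from the own control was -0.252 in the 3 female cultures (-0.42 in 3F, -0.12 in 4F and -0.22 in 5F). It was 0.298 in the 3 male cultures (0.36 in 3M and 0.52 in 5M, but 0.02 in 4M, which hardly moved). The difference between the sexes was not tested.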

How the results depend on the processing

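Of the members' summaries over 10 comparisons, 91 medians held under the alternatives and 3 moved, and 92 counts of calls held and 2 moved. A median was taken to hold if it shifted by less than the SD between cultures, or between pairs for EV against cell. A count held if it stayed within a fixed fold of the main count. This rule is wide: the EV against cell median held at -0.99 with library totals and -0.15 by DESeq2, against -0.49 in the main fit. Outside EV against cell the main fits called no member, so most held counts were 0 against 0. A count also held where the call of Dhcr7 was lost. The median of the members for EV against cell moved to 0.27 with libraries thinned to the smallest total, where Lss (0.76) and Dhcr7 (0.27) turned sign and 7354 genes were called in place of 14527; with no filter 22029 were called. With library totals the members' median in EVs was -0.25 at both 120 and 320 mg/dL. Members called between the sexes in EVs were 2 with the replicate block, and 0 to 1 with a pregnancy left out (Sqle, -0.79, without set 3). The block changed no other call of a member. For Fdps, EV against cell passed without set 3 (0.81, adjusted p = 0.0106) and with thinning (0.65, adjusted p = 0.0191), and Lss passed as lower with library totals (-0.63, adjusted p = 0.0315) and as higher with thinning (0.76, adjusted p = 0.0119), all by edgeR. Between the sexes, 1029 genes were called in cells, with 7 for counts summed over doses, 216 without set 5, 2063 without set 3, 1977 by DESeq2 and 3091 with the replicate block. In EVs 1475 were called, with 0, 3 and 3477 under the first 3 of these, 423 without set 4, 460 with library totals, 2397 by DESeq2 and 3738 with the block. The dose fit in cells called 16 genes, 128 by DESeq2, and 0 or 1 without any 1 pregnancy. The change of the EV to cell difference called 0, but 41 with library totals, 67 with no filter, 69 without set 5 and 3 without the shallow EV libraries. Genes called at 320 mg/dL in EVs were 10, with 272 by DESeq2, 207 with no filter, 62 without set 4 and 0 without set 3 or 5 and without the block. The alternative without the EV libraries under 2 M counts (1 M being 1000000) was chosen after seeing the data. At 320 mg/dL it left no pair with the own control in the cultures with high cell levels of the enzymes. The cause of these changes was not tested. Idi1 and Lss had the lowest EV counts, 0 to 24 and 3 to 53 a library.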
